A study of Mus musculus with 9 samples.

Results

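Semaphorins, plexins and neuropilins are the ligands, signalling receptors and co-receptors of one guidance system, and all 31 mouse genes found for them on these arrays are described here out of 19938 genes measured. Members were matched by gene symbol, and the family itself was picked for description with earlier results of these data known. They comprise 20 semaphorins, 9 plexins and 2 neuropilins, represented by 33 probe sets. Where a gene had 2 probe sets, the one with the higher mean was used.

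The arrays compared induced pluripotent stem cells (iPS), called inducible in the labels and derived from mouse embryonic fibroblasts, with the embryonic stem cell line R1 and with the fibroblasts of origin (MEF), which were grown for fewer than 3 passages. Each group had 3 Affymetrix whole-transcript arrays, described by the submitters as biological repeats. Whether the repeats came from separate derivations or mice, how many iPS lines they cover, which factors or promoter induced them, their genetic background, and whether feeder cells were present are not stated in the labels. The p-values therefore measure only the spread between these samples, which may be technical. Array medians were 78.2 to 83.3, and every value is a linear signal in the authors' units.

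Semaphorins share a folded extracellular sema domain. Class 3 members are secreted, classes 4 to 6 span the membrane, and Sema7a is held by a lipid anchor. Plexins carry a sema domain outside the cell and a GTPase-activating domain inside it, through which a bound semaphorin changes the activity of small Ras-family GTPases and, through them, integrin adhesion and the actin cytoskeleton. Most class 3 semaphorins bind plexins only together with a neuropilin, whereas Sema3e can bind plexin D1 directly. The system is best known for repelling growing axons, and it also shapes vessels, migrating mesenchymal and neural crest cells, and epithelia.

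The labels were checked against marker genes. The summed signal of 7 pluripotency markers was 25962 to 27066 on iPS arrays, 30504 to 32298 on R1 arrays and 296 to 392 on MEF arrays. These markers were not all equal in the pluripotent groups. Between iPS and R1, 1 of the 7 was called lower in iPS (-2.77), where 0.166% of all genes were. Without a minimum difference 2 were lower, and 0 were higher. The summed signal of 8 fibroblast markers was 3334 to 4156 on iPS arrays, 2490 to 3390 on R1 arrays and 26093 to 29219 on MEF arrays. Of these 8, 7 were called lower in each comparison with MEF (over all genes, 7.57% in iPS and 7.93% in R1). In each, 1 was higher at an adjusted p under 0.05 from limma, but under the minimum difference used below (0.40 in iPS, 0.42 in R1). Skeletal muscle markers (6 genes) were also high in MEF, at 5799 to 6961, against 613 to 794 on iPS and 599 to 690 on R1 arrays. In each comparison with MEF, 5 of the 6 were called lower and 1 was not called. Sums of endothelial markers were 594 to 681 for iPS, 655 to 746 for R1 and 415 to 494 for MEF. Macrophage markers summed to 402 to 431 on iPS, 450 to 478 on R1 and 250 to 292 on MEF arrays. Only Cd68 of these 6 was called (1.12 in iPS, 1.36 in R1), and the list medians were -0.03 in iPS and -0.02 in R1. Sums of neuronal and glial markers were 540 to 644 on iPS, 573 to 600 on R1 and 554 to 592 on MEF arrays. No marker is listed at 0, and the files used here hold no detection calls. The defining endothelial marker Cdh5 had mean signals of 37.3 on iPS, 42.2 on R1 and 41.6 on MEF arrays. Pecam1, which pluripotent cells also express, had means of 208 on iPS, 247 on R1 and 46.8 on MEF arrays. Against MEF, 6 of the 8 endothelial markers were not called in either pluripotent group. Pecam1 was called higher (1.81 in iPS, 2.07 in R1), and Emcn was called lower (-1.04 in iPS, -1.08 in R1). Emcn had means of 21.3 on iPS, 20.2 on R1 and 60.6 on MEF arrays. The part that muscle or other cells within a culture play in the differences below was not tested.

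Promoter sequences are shown for 6 members on which the results turn: the co-receptor and the secreted ligands that were far lower in pluripotent cells, a plexin that was lower in them, a ligand that was higher, and the ligand that differed between iPS and R1. Each is a RefSeq window of build GRCm38.p6 from 250 bases before to 50 bases after an annotated start. For Plxnb2 and Sema4b, which have 2 annotated starts each, the outermost start was taken. Capitals mark letters that match GGGCGG (the GC box, bound by Sp and Klf factors), CANNTG (the E-box, bound by basic helix-loop-helix factors such as Twist1) or AAGGTCA (the half-site of nuclear receptors such as Esrrb), on either strand.
Nrp1 (chr8:128358823-128359122, plus strand): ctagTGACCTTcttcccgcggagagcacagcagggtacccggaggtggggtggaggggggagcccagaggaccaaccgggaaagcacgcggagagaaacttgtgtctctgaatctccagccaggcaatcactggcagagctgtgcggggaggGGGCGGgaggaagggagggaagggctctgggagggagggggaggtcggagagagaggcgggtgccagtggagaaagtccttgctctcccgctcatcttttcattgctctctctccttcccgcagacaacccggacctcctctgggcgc
Sema3a (chr5:13396534-13396833, plus strand): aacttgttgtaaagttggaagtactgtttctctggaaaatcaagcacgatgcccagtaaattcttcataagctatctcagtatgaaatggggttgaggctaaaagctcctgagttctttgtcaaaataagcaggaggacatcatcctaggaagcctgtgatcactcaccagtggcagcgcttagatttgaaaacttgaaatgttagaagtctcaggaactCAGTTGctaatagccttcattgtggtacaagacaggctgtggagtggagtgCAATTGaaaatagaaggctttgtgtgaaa
Sema3c (chr5:17574566-17574865, plus strand): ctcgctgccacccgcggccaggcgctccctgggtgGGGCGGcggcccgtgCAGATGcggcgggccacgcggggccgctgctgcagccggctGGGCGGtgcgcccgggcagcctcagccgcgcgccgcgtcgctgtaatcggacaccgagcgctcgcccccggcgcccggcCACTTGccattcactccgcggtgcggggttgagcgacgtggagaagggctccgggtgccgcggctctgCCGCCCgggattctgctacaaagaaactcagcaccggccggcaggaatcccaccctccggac
Sema3e (chr5:14025026-14025325, plus strand): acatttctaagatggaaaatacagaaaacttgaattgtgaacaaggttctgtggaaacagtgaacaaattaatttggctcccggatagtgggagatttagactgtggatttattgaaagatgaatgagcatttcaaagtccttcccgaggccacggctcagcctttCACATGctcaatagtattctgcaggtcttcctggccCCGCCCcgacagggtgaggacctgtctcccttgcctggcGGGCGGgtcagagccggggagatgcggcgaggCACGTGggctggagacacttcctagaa
Plxnb2 (chr15:89180739-89181038, minus strand): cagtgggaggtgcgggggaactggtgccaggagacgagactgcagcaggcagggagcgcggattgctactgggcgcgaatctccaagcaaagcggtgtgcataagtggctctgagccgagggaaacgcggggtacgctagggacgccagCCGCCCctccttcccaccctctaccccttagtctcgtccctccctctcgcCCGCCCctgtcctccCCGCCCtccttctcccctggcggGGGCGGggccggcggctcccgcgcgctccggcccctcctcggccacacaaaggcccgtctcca
Sema4b (chr7:80186620-80186919, plus strand): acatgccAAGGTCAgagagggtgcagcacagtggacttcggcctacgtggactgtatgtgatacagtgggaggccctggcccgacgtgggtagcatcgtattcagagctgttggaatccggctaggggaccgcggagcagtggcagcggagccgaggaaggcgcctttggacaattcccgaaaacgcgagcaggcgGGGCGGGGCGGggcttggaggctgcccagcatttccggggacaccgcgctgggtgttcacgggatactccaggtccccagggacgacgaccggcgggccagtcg

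The windows differ widely in base composition. The Sema3a window holds 2 CpG dinucleotides and 41.3% G or C, and the Sema3c window 42 and 75.7%, although both genes were lower in pluripotent cells. Among all 32851 windows of the table, the median is 7 CpG and the quartiles are 3 and 20. GGGCGG is found in 35.7% of all windows, CANNTG in 72.3% and AAGGTCA in 4.7%. Of the 37 windows of the 26 members that the table holds and that were searched, 27 contain the first, 21 the second and 3 the third. Chromosome 18, where Sema6a lies, was left out of the member search, while the shares of all windows left out no chromosome. The 2 GC boxes marked in the Sema4b window overlap by 1 base. The AAGGTCA letters in the Nrp1 window (on the opposite strand) and in the Sema4b window belong to a gene that was lower and a gene that was higher in pluripotent cells. Such letter matches describe the sequence and do not show that a factor binds.

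Setting iPS cells against MEF shows how the guidance system of the derived cells differs from that of their cells of origin. A gene was called when limma's adjusted p was under 0.05 and the difference in log2(signal + 16) was at least 1 in size. Of 31 members 9 fell and 2 rose in iPS cells. Over all genes, 12.7% were called in this comparison, 7.57% as lower and 5.08% as higher. The 9 that fell were Nrp1, the ligands Sema3a, Sema3c, Sema3d, Sema4c and Sema5a, and the plexins Plxna2, Plxnb2 and Plxnd1, and those that rose were Sema4b and Sema4d. The median difference of the members was -0.59, against 0.02 over all genes tested. In R1 cells compared with MEF, 11 members fell and 2 rose, where 13.5% of all genes were called, 7.93% lower and 5.56% higher. Sema3e and Sema6d were called here besides those named above. The median of the members was -0.71, against 0.02 over all genes. Both comparisons use the same MEF arrays. In such samples, fewer cells that express a gene and less RNA per cell cannot be told apart.

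**Figure D1:**
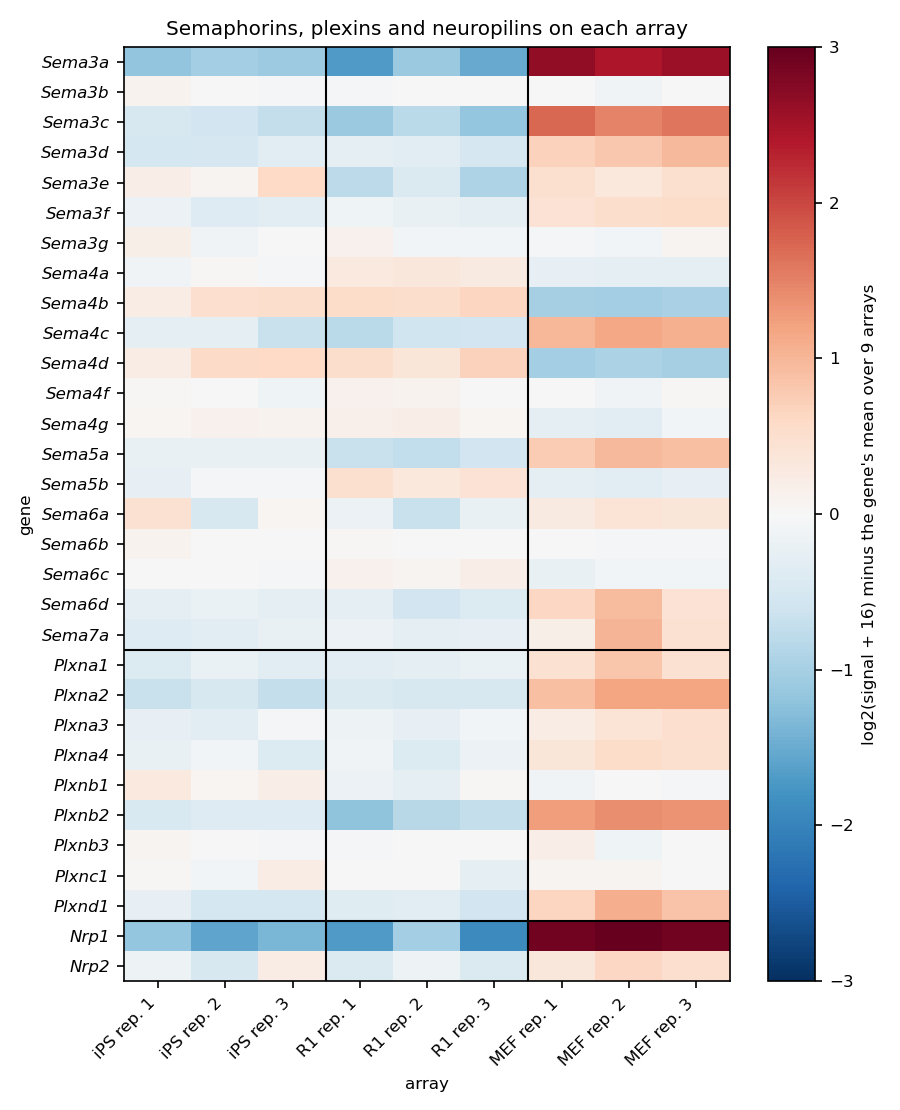
Signals of the 31 genes on the 9 arrays, as log2(signal + 16) minus each gene's mean over all arrays (colour), with arrays ordered iPS, R1, MEF and genes grouped as semaphorins, plexins and neuropilins. Sema3a and Nrp1 are the darkest red rows in MEF, and Sema4b and Sema4d show the opposite pattern.

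**Figure D2:**
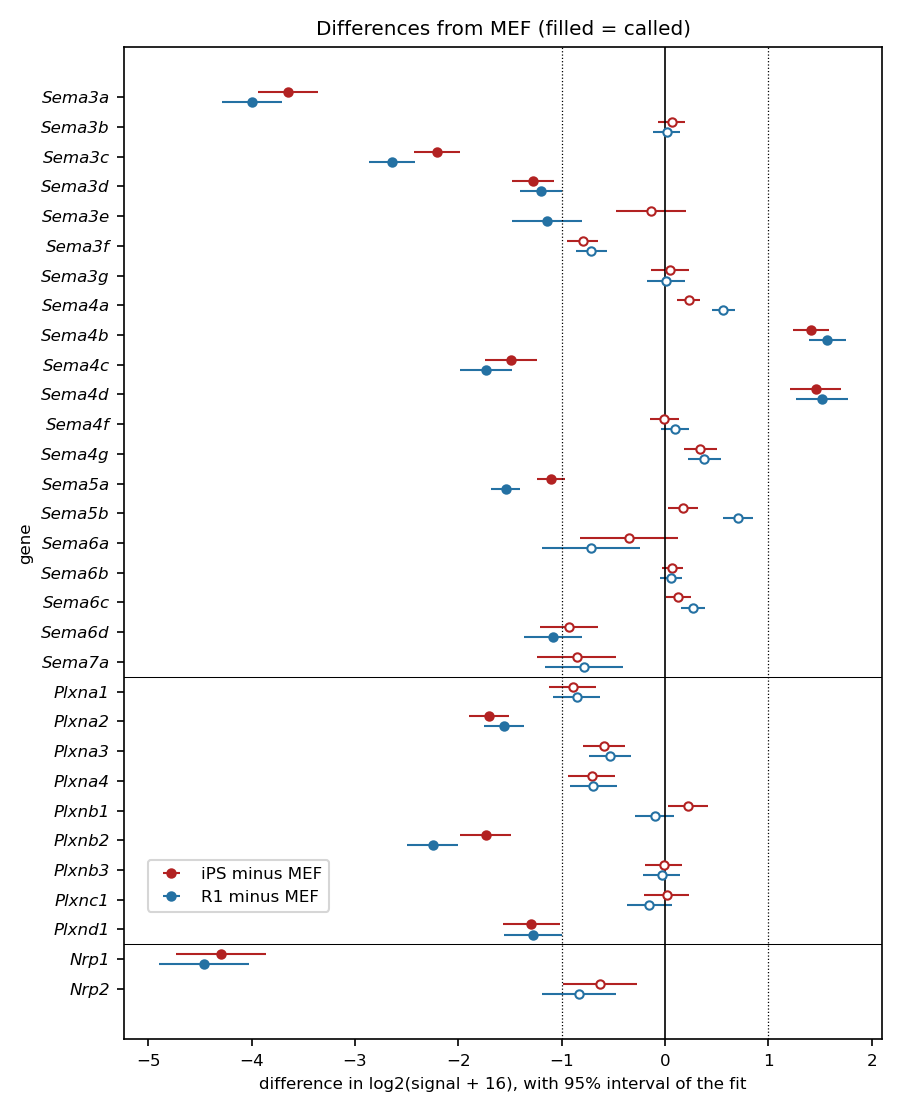
Differences in log2(signal + 16) of iPS (red) and R1 (blue) from MEF for each gene, with the 95% interval of the fit; filled points were called and dotted lines mark a difference of 1. Nrp1 lies at -4.30 and -4.46, and Sema3e is filled for R1 only.

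Among the co-receptors, Nrp1 showed the largest difference of the family. Nrp1 (neuropilin-1) binds class 3 semaphorins and VEGF-A and pairs with A-type plexins. Its signal was 114, 81.6 and 96.3 on the 3 iPS arrays, 74.5, 127 and 62.2 on the R1 arrays, and 2150, 2288 and 2150 on the MEF arrays. All 6 pluripotent arrays lay far below all MEF arrays, and the iPS and R1 values overlapped. The difference was -4.30 ± 0.19 (SE; limma adjusted p = 7.32e-08) for iPS and -4.46 ± 0.19 (adjusted p = 5.04e-08) for R1, which corresponds to 19.7-fold and 22.0-fold lower values on the log2(signal + 16) scale. The other neuropilin, Nrp2, which prefers Sema3f and also binds VEGF-C, had signals of 355, 280 and 465 on iPS arrays, 288, 355 and 290 on R1 arrays and 508, 617 and 572 on MEF arrays. The pluripotent arrays were again lower than all MEF arrays, but the differences of -0.63 ± 0.16 (adjusted p = 0.00807) and -0.83 ± 0.16 (adjusted p = 0.00145) were under the minimum of 1, and Nrp2 was not called.

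Secreted class 3 ligands split into genes that were lower in pluripotent cells and genes that were not called. Sema3a, the collapsin that repels axons through Nrp1 and A-type plexins, had signals of 83.3, 94.4 and 89.9 on iPS arrays, 53.4, 87.4 and 62.7 on R1 arrays, and 1399, 1193 and 1314 on MEF arrays. The lowest MEF array stood far above the highest pluripotent array, and the SD of the MEF arrays was 104. Sema3a fell in both, with differences of -3.65 ± 0.13 (SE) in iPS cells and -3.99 ± 0.13 in R1 cells (adjusted p = 1.67e-08 and 8.25e-09). Sema3c, which guides neural crest cells in the outflow tract of the heart, had signals of 85.0, 78.2 and 70.5 in iPS, 49.5, 64 and 47.2 in R1 and 452, 383 and 416 in MEF. It fell in both, with differences of -2.20 ± 0.10 in iPS and -2.64 ± 0.10 in R1 cells. Sema3d was dim in pluripotent cells, at 29.9, 30.1 and 36.8 in iPS and 37.5, 36.5 and 30.7 in R1, against 90.5, 99.0 and 114 in MEF. Its differences were -1.28 ± 0.09 and -1.20 ± 0.09, both called, and both understated because the added 16 is large beside such signals.

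Sema3f, a ligand of Nrp2, was at 165 ± 14 in iPS, 175 ± 9.1 in R1 and 298 ± 12 in MEF (SD, n = 3 each). Its differences from MEF of -0.80 ± 0.07 (adjusted p = 4.13e-06) and -0.71 ± 0.07 (adjusted p = 8.68e-06) did not reach the minimum. Sema3b and Sema3g stayed between 66.7 and 103 on every array, and their 4 differences from MEF lay between 0.01 and 0.06. Of the 7 class 3 genes, 3 were thus called lower in iPS and 4 in R1 cells, and 0 higher. Over all genes, 7.57% were called lower and 5.08% higher in iPS, and 7.93% lower and 5.56% higher in R1 cells.

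Sema3d, Sema3a, Sema3e and Sema3c lie in this order on mouse chromosome 5 in the RefSeq table. Sema3d and Sema3a have 0 annotated protein-coding genes between them, Sema3a and Sema3e have 3, and Sema3e and Sema3c have 15. Of the 4 measured genes within these intervals, 2 were called in each comparison against MEF and 0 in iPS against R1. Over all genes, 12.7% were called in iPS and 13.5% in R1 against MEF, and 0.461% in iPS against R1. Those 2 lie between Sema3e and Sema3c, where 3 of the 15 genes were measured. The count does not separate lower from higher. The semaphorins themselves did not all show 1 pattern: Sema3d and Sema3a were lower in both pluripotent groups, and Sema3e, next in order, was lower in R1 only.

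Membrane-bound class 4 held the members that rose. Sema4b, a transmembrane ligand found on epithelial and neural cells, had signals of 478, 580 and 596 on iPS arrays, 600, 596 and 648 on R1 arrays, and 195, 194 and 199 on MEF arrays. All pluripotent arrays exceeded all MEF arrays, and the difference was 1.41 ± 0.08 (SE; adjusted p = 2.69e-07) in iPS and 1.57 ± 0.08 (adjusted p = 1.17e-07) in R1 cells. Sema4d, known as CD100 on lymphocytes and a ligand of plexin B1, had signals of 182, 236 and 242 in iPS, 228, 201 and 260 in R1, and 67.6, 72.0 and 68.6 in MEF. It rose by 1.46 ± 0.11 and 1.52 ± 0.11. This rests on 1 of its 2 probe sets. The other, whose annotation lists a single predicted transcript, gave 81.0, 73.5 and 72.0 in iPS, 86.2, 67.6 and 82.1 in R1, and 83.9, 71.0 and 78.8 in MEF, with differences of -0.04 and 0.01. With the mean of both probe sets, the differences were 0.71 in iPS and 0.76 in R1 cells, and Sema4d was not called.

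Sema4c, a ligand of plexin B2, fell, within the same class. Its signals were 127, 127 and 93.1 in iPS, 83.9, 99.0 and 102 in R1, and 331, 375 and 350 in MEF, with differences of -1.49 ± 0.11 in iPS and -1.73 ± 0.11 in R1 cells. The remaining class 4 genes were not called. Sema4a, a ligand studied mainly on immune cells, was at 64.1 ± 4.1 in iPS, 85.1 ± 2.7 in R1 and 52.4 ± 1.1 in MEF, with differences of 0.23 ± 0.05 (adjusted p = 0.00312) and 0.56 ± 0.05 (adjusted p = 5.70e-06). Sema4g had differences of 0.34 and 0.38, and Sema4f of -0.01 and 0.10.

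The class 5 ligands, which carry thrombospondin repeats beside the sema domain, diverged from each other. Sema5a had signals of 92.4, 91.8 and 93.1 in iPS, 63.1, 60.1 and 68.6 in R1, and 199, 231 and 221 in MEF. It fell in both, by differences of -1.10 ± 0.06 in iPS and -1.54 ± 0.06 in R1 cells, and the 3 groups did not overlap. Sema5b had signals of 105, 121 and 121 in iPS, 182, 162 and 177 in R1, and 100, 97.0 and 103 in MEF. Here the R1 arrays were the highest, and the differences from MEF of 0.18 ± 0.06 for iPS (adjusted p = 0.0459) and 0.71 ± 0.06 for R1 (adjusted p = 7.89e-06) were under the minimum.

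Class 6 ligands, which also act as receptors, had 1 called member, Sema6d, a ligand of plexin A1. Its signals were 67.6, 71.5 and 66.3 in iPS, 68.1, 51.3 and 60.5 in R1, and 140, 180 and 120 in MEF. Sema6d fell by 1.09 ± 0.12 in R1 cells, and the difference of -0.93 ± 0.12 in iPS was not called. Each outcome turned on a single MEF array: without MEF replicate 2 the R1 difference was -0.95 and not called, and without MEF replicate 3 the iPS difference was -1.05 and called. Sema6a varied within the pluripotent groups, at 410, 207 and 307 in iPS and 258, 181 and 249 in R1, against 362, 399 and 388 in MEF, with differences of -0.35 ± 0.21 and -0.72 ± 0.21. Sema6b and Sema6c had differences of 0.06 to 0.27 and were not called. Both probe sets listed for Sema6b hold the same value on each array and were counted once. Sema7a, which signals through beta-1 integrin and plexin C1, was at 103, 108 and 118 in iPS, 120, 112 and 114 in R1, and 160, 296 and 195 in MEF. MEF replicate 2 was far above the other MEF arrays. The differences were -0.85 ± 0.17 (adjusted p = 0.00182) and -0.78 ± 0.17 (adjusted p = 0.00304), not called. Without MEF replicate 2 they shrank to -0.62 in iPS and -0.55 in R1. Without MEF replicate 1 the iPS difference was -1.04 and called.

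**Figure D3:**
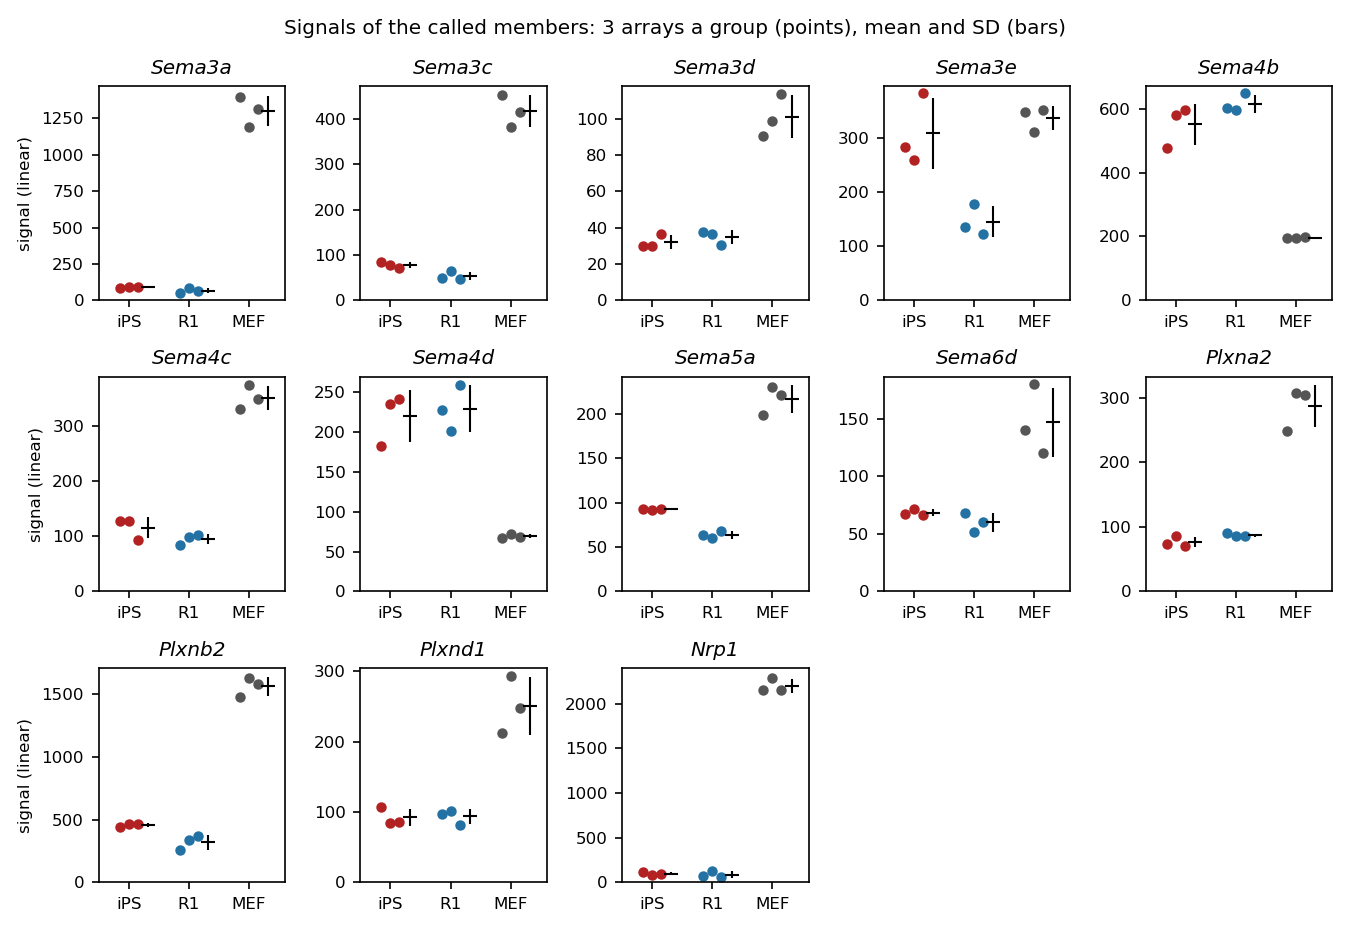
Linear signals of the 13 genes called in at least 1 comparison, by group in the order iPS, R1, MEF; points are the 3 arrays, the cross bar is the mean and the vertical bar the SD, and each panel has its own axis from 0. Pluripotent arrays lie below MEF arrays in 10 panels and above them for Sema4b and Sema4d, and in the Sema3e panel iPS and MEF values overlap, at 260 to 383 and 311 to 352.

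Plexins, the signalling receptors, had 3 of 9 members lower and 0 higher in both comparisons with MEF, where 7.57% of all genes were lower in iPS and 7.93% in R1. Plxnb2, a broadly expressed receptor of class 4 semaphorins, had signals of 443, 465 and 468 in iPS, 256, 335 and 367 in R1, and 1479, 1629 and 1585 in MEF. It fell, with differences of -1.74 ± 0.11 in iPS (adjusted p = 6.23e-07) and -2.25 ± 0.11 in R1 cells (adjusted p = 9.53e-08). Plxna2, a receptor of Sema6a and, with neuropilins, of class 3 ligands, had signals of 74.0, 85.6 and 70.5 in iPS, 89.9, 85.0 and 85.0 in R1, and 249, 307 and 304 in MEF, and fell, with differences of -1.70 ± 0.09 in iPS and -1.55 ± 0.09 in R1 cells. Plxnd1, the Sema3e receptor of vessels, had signals of 107, 85.0 and 85.6 in iPS, 97.7, 102 and 81.6 in R1, and 212, 294 and 247 in MEF, and fell, with differences of -1.29 ± 0.12 in iPS and -1.28 ± 0.12 in R1 cells.

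The other A-type plexins shared the direction of Plxna2 but stayed under the minimum. Plxna1 was at 580 ± 40 in iPS, 596 ± 31 in R1 and 1098 ± 171 in MEF, with differences of -0.90 ± 0.10 and -0.86 ± 0.10 (adjusted p = 3.76e-05 and 4.90e-05). Plxna3 differed by -0.59 and -0.53 and Plxna4 by -0.71 and -0.69, and for both genes all pluripotent arrays were below all MEF arrays. Plxnb1, the Sema4d receptor, was at 266 ± 22 in iPS, 210 ± 25 in R1 and 226 ± 9.5 in MEF, and differed from MEF by 0.22 ± 0.09 and -0.10 ± 0.09. Plxnb3, a receptor of Sema5a, and Plxnc1, a receptor of Sema7a, kept signals between 44.3 and 77.2 on every array, with differences of -0.15 to 0.01. Without a minimum difference, 16 members were lower and 5 higher in iPS, and 18 lower and 6 higher in R1 cells, at an adjusted p under 0.05. Over all genes 48% passed that rule in iPS (23.2% lower, 24.8% higher) and 48.9% in R1 (23% lower, 25.9% higher).

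Set beside their known receptors, the ligands did not all move with them. Sema3a and its co-receptor Nrp1 were both lower in pluripotent cells (-3.65 and -4.30 in iPS, -3.99 and -4.46 in R1), as were Sema4c and Plxnb2 (-1.49 and -1.74 in iPS, -1.73 and -2.25 in R1). Sema4d rose while Plxnb1 was not called (1.46 and 0.22 in iPS, 1.52 and -0.10 in R1). The other Sema4d probe set showed no such rise (-0.04 in iPS, 0.01 in R1). Sema5a fell while Plxnb3 was not called (-1.10 and -0.01 in iPS, -1.54 and -0.03 in R1). Plxnb3 signals were low, at 58.1 to 77.2, under the array medians of 78.2 to 83.3. For Sema3e and Plxnd1, the receptor fell in both pluripotent groups and the ligand in R1 only. Sema3f and Nrp2 were both lower, under the minimum (-0.80 and -0.63 in iPS, -0.71 and -0.83 in R1). Sema6d and Plxna1 were also both lower (-0.93 and -0.90 in iPS, -1.09 and -0.86 in R1). Plxna2 fell while Sema6a was not called (-1.70 and -0.35 in iPS, -1.55 and -0.72 in R1). Sema7a was lower under the minimum, and Plxnc1 differed little (-0.85 and 0.01 in iPS, -0.78 and -0.15 in R1). Each pair consists of 2 separate genes in the same fit, and whether a pair moved together was not tested.

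The comparison of iPS with R1 cells asks whether the derived line matches an embryonic stem cell line. Of 31 members 1 was called, Sema3e, which was higher in iPS cells, where 0.461% of all genes were called and 0.296% called higher. Sema3e, a ligand of plexin D1 known from vessel patterning, had signals of 284, 260 and 383 on iPS arrays, against 135, 177 and 123 on R1 arrays. The MEF arrays read 347, 311 and 352. The iPS arrays thus overlapped MEF, and no R1 array reached either. The difference between iPS and R1 was 1.01 ± 0.15 (SE; adjusted p = 0.00425), or 2.01-fold, that between iPS and MEF -0.14 ± 0.15 (adjusted p = 0.531; 95% interval -0.48 to 0.20), and that between R1 and MEF -1.14 ± 0.15 (adjusted p = 0.000115). The value sits at the minimum difference, so the call depended on single arrays: it was lost without iPS replicate 3 (0.85), R1 replicate 1 (0.97) or R1 replicate 3 (0.91). In these fits, the adjusted p was 0.00898, 0.0236 and 0.0182.

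Without a minimum difference 7 members differed between iPS and R1 at an adjusted p under 0.05, 5 higher and 2 lower, where 8.52% of all genes did (4.12% higher, 4.4% lower). Besides Sema3e, the genes higher in iPS were Plxnb2 (0.51 ± 0.11, adjusted p = 0.0201), Sema5a (0.44 ± 0.06, adjusted p = 0.00272), Sema3c (0.44 ± 0.10, adjusted p = 0.0269) and Plxnb1 (0.32 ± 0.09, adjusted p = 0.0494). Those lower in iPS were Sema5b (-0.53 ± 0.06, adjusted p = 0.00142) and Sema4a (-0.34 ± 0.05, adjusted p = 0.00369). For Nrp1 the difference was 0.16 ± 0.19 (95% interval -0.27 to 0.60), an interval that holds differences of either sign. The median over the members was 0.01, against -0.01 over all genes.

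**Figure D4:**
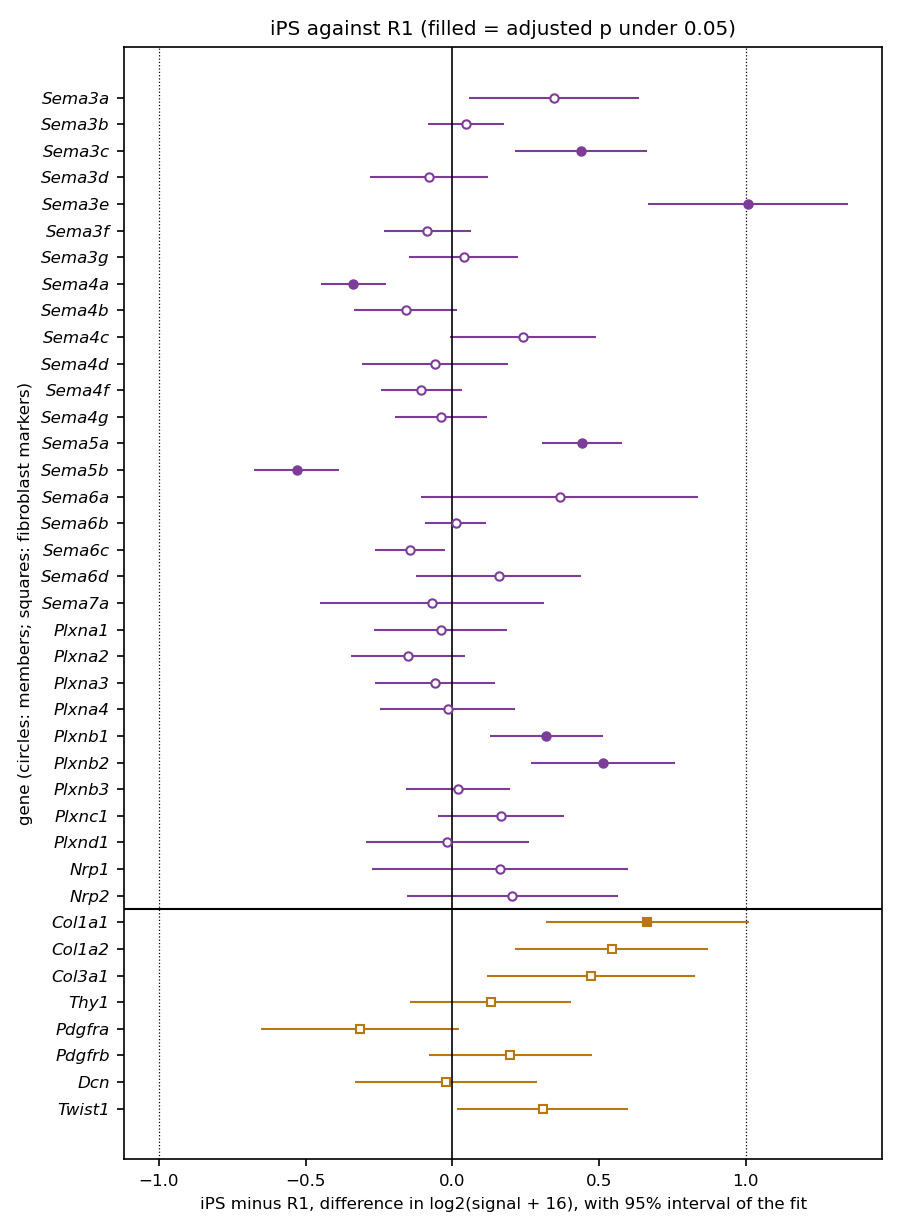
Differences in log2(signal + 16) between iPS and R1 for the 31 genes (circles) and 8 fibroblast markers (squares), with the 95% interval of the fit; filled symbols had an adjusted p under 0.05 and dotted lines mark a difference of 1. Sema3e lies at 1.01, and Col1a1, the filled square, at 0.67.

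Fibroblast marker signals are given beside these differences. Their summed signal was 4156, 3334 and 3557 on the iPS arrays, against 2562, 3390 and 2490 on the R1 arrays, and the groups overlapped. Of the 8 markers 0 were called between iPS and R1 by limma, where 0.461% of all genes were. Without a minimum difference, 8.52% of all genes passed an adjusted p of 0.05 (4.12% higher, 4.4% lower). Of the markers 1 did, Col1a1, a chain of type I collagen. It was at 1229 ± 108 in iPS and 785 ± 211 in R1 (0.67 ± 0.15, limma adjusted p = 0.0289). The other 7 lay between -0.31 and 0.54.

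R1 replicate 2 had the highest signal of the R1 arrays for 6 of the 8 markers, with 1 tied and Pdgfra highest in R1 replicate 3. Among the 11 members lower in R1 than in MEF it was the highest for 5, namely Nrp1, Plxnd1, Sema3a, Sema3c and Sema3e. It was the highest for 58.5% of all genes lower in R1 than in MEF and for 29.7% of all genes tested. Leaving this array out necessarily raises the iPS minus R1 difference of those 5 members. The values without it were 1.15 for Sema3e, 0.54 for Sema3c, 0.51 for Sema3a, 0.42 for Nrp1 and 0.04 for Plxnd1, against 1.01, 0.44, 0.35, 0.16 and -0.02 with it. Other members moved down, such as Sema6a (0.22 without it, 0.37 with it), Sema6d (0.07 without, 0.16 with) and Sema5a (0.41 without, 0.44 with). Of all members, Sema3a then passed an adjusted p of 0.05 (0.0112) and Plxnb1 (0.25, adjusted p = 0.136) no longer did. The part of fibroblast RNA in these differences was not tested.

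**Figure D5:**
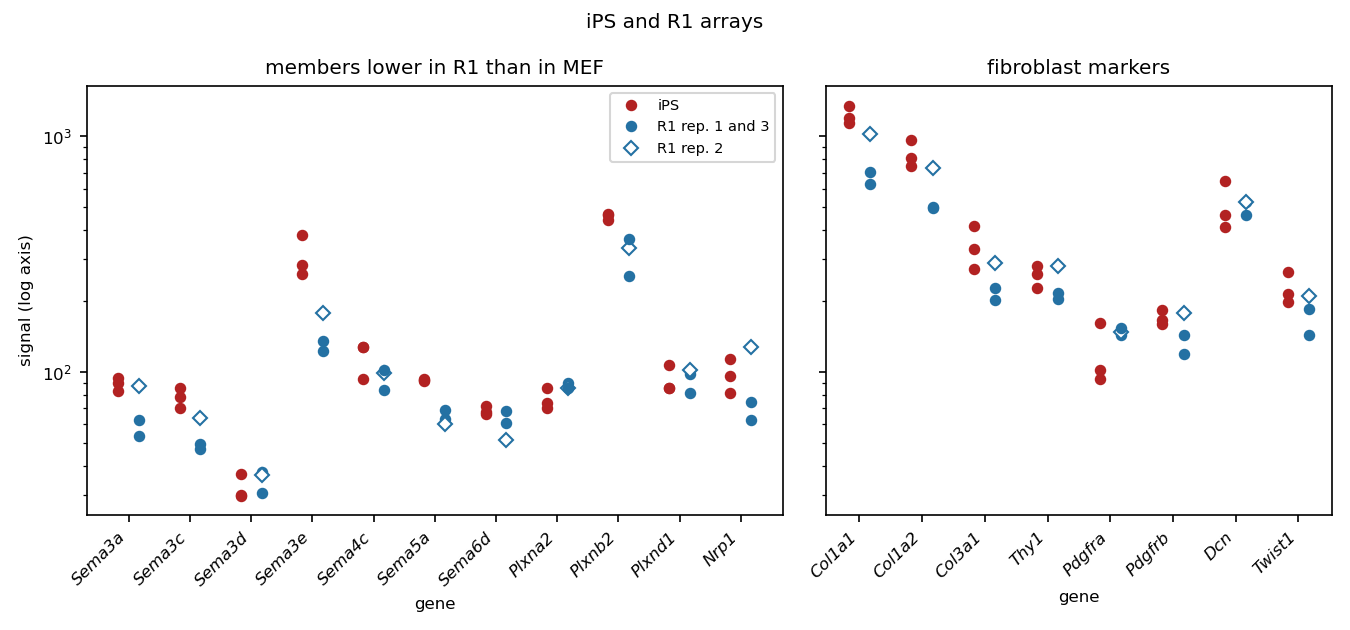
Signals (log axis) of the 11 members lower in R1 than in MEF (left) and of all 8 fibroblast markers (right) on the 3 iPS arrays (red, left of each pair) and the 3 R1 arrays (blue), with R1 replicate 2 drawn as a diamond. R1 replicate 2 is the highest R1 array for 5 of the 11 members and 6 of the 8 markers.

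Other genes of the pathway were taken from 6 lists with 108 genes, of which 103 were measured. In iPS cells 28 fell and 2 rose, and in R1 cells 30 fell and 3 rose, against MEF. The shares of all genes called were 7.57% lower and 5.08% higher in iPS, and 7.93% lower and 5.56% higher in R1, and the counts of each list below stand beside these. Among 15 co-receptors and other semaphorin receptors, 4 fell in iPS and 5 in R1, and 0 rose (medians -0.21 and -0.17). Met, the HGF receptor that associates with B-type plexins, was at 71.1 ± 7.5 in iPS, 93.2 ± 13 in R1 and 572 ± 64 in MEF and fell, with differences of -2.75 in iPS and -2.43 in R1. The VEGF receptor Flt1 (-1.89 in iPS, -2.28 in R1) and Itgb1, the beta-1 integrin that Sema7a engages (-1.74 in iPS, -1.85 in R1), fell too.

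Of 5 VEGF family ligands, which share neuropilins with the class 3 semaphorins, Vegfd fell in both (-1.64 ± 0.08 in iPS, -1.59 ± 0.08 in R1). Vegfc was at 201 ± 34 in iPS, 394 ± 57 in R1 and 188 ± 14 in MEF, and was called higher in R1 at the minimum (1.003 ± 0.13). That call was lost without R1 replicate 2 (0.89), MEF replicate 1 (0.96) or MEF replicate 2 (0.998). Vegfc was called lower in iPS than in R1 without iPS replicate 3 (-1.03) or R1 replicate 3 (-1.01), and not with all arrays (-0.92 ± 0.13). The median of this list was -0.48 in iPS and -0.81 in R1.

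Of 8 proteases that cleave semaphorins or their receptors, 3 fell and 1 rose in each comparison with MEF (medians -0.45 and -0.37). Furin, which cuts class 3 precursors, was at 147 ± 17 in iPS, 136 ± 14 in R1 and 1039 ± 135 in MEF and fell (-2.69 in iPS, -2.79 in R1). Mmp14 (-2.69 in iPS, -2.99 in R1) and Adam10 (-1.99 in iPS, -2.02 in R1) also fell, while the convertase Pcsk6 rose (1.15 in iPS, 1.60 in R1). Of 35 measured cytoplasmic effectors, 9 fell in iPS and 10 in R1, and 0 rose (medians -0.44 and -0.46). Farp1, an exchange factor that binds A-type plexins, was at 137 ± 12 in iPS, 131 ± 7.7 in R1 and 1199 ± 53 in MEF and fell (-2.995 in iPS, -3.04 in R1). The actin-oxidising enzyme Mical2 (-2.63 in iPS, -2.85 in R1) and Dpysl3, of the collapsin response mediator family (-2.46 in iPS, -2.71 in R1), fell as well.

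Other guidance families were counted in the same way. Of 21 ephrins and Eph receptors, 5 fell and 1 rose in each comparison with MEF (medians 0.002 and -0.03). Epha3 (-3.36 in iPS, -3.48 in R1), Efnb1 (-2.16 in iPS, -2.22 in R1) and Efna5 (-1.81 in iPS, -2.28 in R1) fell, whereas Epha2 rose in R1 (1.38 ± 0.10) and Epha1 in iPS (1.11 ± 0.20). Epha1 was not called without iPS replicate 1 (0.84). The mean signal of Epha3 was 26.4 in iPS and 23.2 in R1, against 420 in MEF. So dim a signal cannot be told from background, and its difference ranged from -3.95 to -2.42 in iPS and from -4.12 to -2.47 in R1 over the alternatives. Of 19 Slit, Robo, netrin and Unc5 genes, 6 fell and 0 rose in each (medians -0.43 and -0.18), with Slit2, a repellent ligand of Robo receptors, at -2.99 in iPS and -3.65 in R1, Unc5b at -2.29 and -2.86, and Unc5c at -2.28 and -2.38. Between iPS and R1, where 0.461% of all genes were called, 1 of the 103 genes was, Epha7 (234 ± 74 in iPS, 104 ± 6.9 in R1; 1.01 ± 0.20, adjusted p = 0.0143). Its call was lost without iPS replicate 1 (0.85), iPS replicate 3 (0.90) or R1 replicate 1 (0.97), and Epha1 was called without iPS replicate 2 (1.003). The median of every list in that comparison lay between -0.05 and 0.07.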

How the data were processed

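Biotin-labelled RNA of 9 samples was measured on whole-transcript arrays, 3 each of iPS, R1 and MEF. The values the authors deposited are linear intensities, with 1 intensity for each probe set on an array. GCOS 1.4 appears in the submitters' processing notes, with no role; how background was corrected and values were summarized and normalized is not given in the sources used here. Array medians were nearly equal, so no normalization was added. Of 35557 probe sets, 21789 had 1 gene symbol and the brightest per gene gave 19938 genes. No dim gene was left out. Values were analysed as log2(signal + 16), which understates differences of dim genes, in 1 limma fit over all arrays (limma 3.58.1, R 4.3.3; lmFit and eBayes, 6 residual degrees of freedom), adjusted by Benjamini-Hochberg over all genes. All adjusted p-values are limma's. Every member may be named. From each list, the 3 largest called changes in each direction are named. The members and lists were chosen with earlier results of these data known. Sequences are from RefSeq (GRCm38.p6). Groups follow the sample labels. On simulated data for iPS against R1 (19938 genes), the fit called 100% of 50 genes changed by 1.25 and of 50 changed by 2 (log2) in each direction, with 0 false calls. The changed genes were drawn from the brighter genes only, with normal noise that was independent between genes and arrays. The simulation therefore does not cover dim genes or differences at the minimum of 1. Alternatives were other normalizations, pseudocounts of 1 and 64, leaving out dim genes (mean signal under 50), other handling of probe sets, other tests and thresholds, array weights, an intensity trend, fits of 2 groups, a replicate block and leaving out each array. From the lists, 5 genes without a match were not analysed here. The precision is limited by 3 arrays per group.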

Additional observations from a re-analysis of the deposited data

Results flagged for a closer look

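Sema3e was the 1 member called in the direct test of iPS against R1 cells, which is the test of whether their differences from MEF are unequal (1.01, limma adjusted p = 0.00425). Its signal was 309 ± 65 in iPS and 145 ± 29 in R1, against 337 ± 23 in MEF (SD, n = 3 each). Groups of 3 arrays are too small for a test of single outlying arrays.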

How the results depend on the processing

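Each result was recomputed under 22 alternatives. Without a minimum difference, 21 members were called in iPS against MEF in place of 11, 24 in R1 against MEF in place of 13 and 7 in iPS against R1 in place of 1, and 69, 72 and 26 genes of the pathway lists in place of 30, 33 and 1. In iPS against R1, Sema3e and Epha7 were both lost with a pseudocount of 64 (0.83 and 0.79), in a test against a difference of 1, and with array weights (0.999 and 0.81), which left 0 members and 0 list genes called, against 7 and 26 without the minimum. With each array left out in turn, 11 to 12 members were called in iPS against MEF, 12 to 13 in R1 against MEF and 0 to 1 in iPS against R1, and 28 to 31, 32 to 34 and 0 to 2 list genes. A test against a difference of 1 called 8 members in iPS and 9 in R1 against MEF. There Plxnd1, Sema3d and Sema5a lost their call in iPS, and Plxnd1, Sema3d, Sema3e and Sema6d in R1. With a pseudocount of 64, Sema3d (-0.78) and Sema5a (-0.84) lost it in iPS, and Plxnd1 (-0.99), Sema3d (-0.74), Sema3e (-0.95) and Sema6d (-0.76) in R1. No called difference of a member or named list gene changed its sign in any of the 22 alternatives. Differences that were not called could, such as Nrp1 in iPS against R1 (-0.02 to 0.42 with arrays left out). The replicate numbers are not known to pair samples: same-numbered arrays correlated at -0.08 to 0.24 in their deviations, differently numbered ones at -0.23 to 0.20, and 4 of 9 arrays correlated best with their own number. Pairs of replicate 1 arrays were at 0.21 to 0.24, above every differently numbered pair. Those of replicate 2 were at 0.02 to 0.20 and those of replicate 3 at -0.08 to -0.02. With the replicate block, 11, 13 and 1 members were called. The causes of these changes were not tested. Signals near the dim end (30.1% of genes averaged under 50) cannot be told apart from background here.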
